A study of Rattus norvegicus with 20 samples.

Results

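The comparison described here sets the gastrocnemius against the soleus of rats after a sham operation, with 5 libraries of each muscle, 10 of the 20 libraries of the series. The study measured poly(A) RNA in the hindlimb muscles of Sprague Dawley rats by stranded paired-end sequencing. It set sham surgery against limb ischemia made by occluding the ilio-femoral artery with an endovascular catheter. The sham groups are "sham gastrocnemius" and "sham soleus", of the same strain and with no occlusion. The ischemia groups, 5 gastrocnemius and 5 soleus libraries, give the same muscle difference beside that of the sham animals. They also enter the filter on low values and the shared estimate of spread behind every sham call. The age and sex of the rats, the time from operation to sampling, the part of each muscle taken and whether animals were pooled were not given in the sources used here. Nothing in the labels says whether the libraries of a group came from separate rats, so p-values measure the spread between these libraries.

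Skeletal muscle fibres come in slow and fast types that differ in their myosin, in the speed at which they take calcium back up and in the fuel they burn. The soleus is a postural muscle in which slow oxidative fibres predominate in the rat. The gastrocnemius is a mixed muscle, with a deep part rich in slow and oxidative fibres and a superficial part of fast glycolytic fibres. Slow fibres use the myosin heavy chain of Myh7, and fast fibres use those of other genes, among them Myh4 in the fastest type. Nerve activity, calcineurin signalling and transcription factors such as Sox6 are known to set these programmes in rodents.

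Levels below are FPKM, fragments scaled to transcript length and to sequencing depth, as the authors deposited them. Values are always given for libraries 1 to 5 of gastrocnemius and then libraries 1 to 5 of soleus. Gene coordinates are those of the deposited table, whose genome build was not given. A log2 fold change is gastrocnemius minus soleus, so a positive value means higher in gastrocnemius. It is followed by its standard error and, in parentheses, by the log2 fold change without soleus library 4. The test is edgeR's quasi-likelihood test on the deposited counts, with Benjamini-Hochberg adjustment over all genes tested, and a gene is called at an adjusted p below 0.05. In bulk tissue a lower level can come from fewer cells of a type or from less RNA per cell, and these cannot be told apart.

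Soleus library 4 stood apart from the other soleus libraries. It had 8048 genes at 1 FPKM or more, against 10644 to 10876 in the other 4 soleus libraries and 9711 to 10520 in gastrocnemius. The median correlation with its own group, on log2(FPKM + 1), was 0.831, against 0.984 to 0.986 for the other 4, and the 10 most abundant genes held 39.9% of its counts, against 27.5% to 28.3%. Its TMM scaling factor was 0.495, against 1.07 to 1.09. The test used these factors, whereas FPKM levels did not. Whether the muscles overlapped in a named gene was judged on FPKM. For soleus library 4 such overlaps can differ on the scaling of the test, which was not examined. The total count was 64.7 M in that library, 73.7 to 85.4 M in the other soleus libraries and 53.6 to 64.8 M in gastrocnemius. Genes at 1 FPKM or more numbered 10144 ± 307 in gastrocnemius and 10239 ± 1228 in soleus (SD, n = 5 each; two-sided exact permutation p = 0.952). Without that library the difference, gastrocnemius minus soleus, was -644 genes (two-sided exact permutation p = 0.0159, the smallest that 5 against 4 can give). The library was set apart partly by this same number of genes, so that p is no separate support for a difference. Named genes and gene lists are therefore given with and without it.

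Of 21926 genes in the table, 11693 reached 1 FPKM in 5 or more libraries of the 20 and were tested. The muscles differed in 2911 genes, which is 24.9% of those tested: 1330 were higher in gastrocnemius (11.4%) and 1581 higher in soleus (13.5%). Fitted on the 10 sham libraries alone, the test called 1387 genes (11.9%), 748 higher in gastrocnemius (6.4%) and 639 higher in soleus (5.46%). With limma voom and quality weights on all libraries it called 5267 (45%), 2582 (22.1%) and 2685 (23%). With library totals in place of TMM factors the split was 808 higher and 1623 lower. Of the called genes, 1632 (14% of those tested) differed at least 2-fold, a log2 fold change of 1, and 206 (1.76%) had a log2 fold change of at least 3 in size, 103 in each direction. The median log2 fold change of all tested genes was -0.10. All 5 gastrocnemius libraries lay on one side of all 5 soleus libraries, in CPM scaled by the TMM factors, for 1963 genes (16.8%). Without soleus library 4 the test called 4136 genes (35.4%), of which 2139 were higher in gastrocnemius (18.3%) and 1997 higher in soleus (17.1%). Of the 2911 genes, 2547 (87.5%) were called again with the same sign and 364 were not. For the gene lists below, a pair of counts is always the number higher in gastrocnemius and then the number higher in soleus, first with all libraries and then without soleus library 4, with sham libraries alone and with voom quality weights. Each is to be read against these shares of all tested genes.

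The sharpest division lay in the contractile apparatus. All 14 tested slow myofilament genes were higher in soleus, with a median log2 fold change of -3.78, and all 14 tested fast myofilament genes were higher in gastrocnemius, with a median of 5.12. The same 14 and 14 were called without soleus library 4, with medians of -3.54 and 5.04. DESeq2, as an alternative, called 7 of the slow genes and gave no adjusted p for the other 7. Summed FPKM of the slow list was 764 to 11533 in gastrocnemius and 41652 to 44056 in soleus libraries 1, 2, 3 and 5, with 57854 in library 4. For the fast list it was 32626 to 75371 in gastrocnemius and 2272 to 4199.7 in those 4 soleus libraries. In every gastrocnemius library the fast sum exceeded the slow sum, and in every soleus library the slow sum exceeded the fast sum.

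The upstream sequences of 4 of these genes are shown here, the 2 with the largest log2 fold change in size in each list, Actn3 and Mybpc2 of the fast list and Ankrd2 and Tnni1 of the slow list. Actn3 encodes the alpha-actinin of fast Z-discs, Mybpc2 the fast myosin-binding protein C, Ankrd2 a stretch-responsive ankyrin repeat protein of slow fibres and Tnni1 slow troponin I. Each is the 250 bases before the start site of the RefSeq gene model on build GRCr8, in the direction of transcription. Capitals mark the E-box CANNTG, a site form bound by myogenic factors such as MyoD, and the MCAT element CATTCC, a site form bound by TEAD factors, on either strand.
Actn3: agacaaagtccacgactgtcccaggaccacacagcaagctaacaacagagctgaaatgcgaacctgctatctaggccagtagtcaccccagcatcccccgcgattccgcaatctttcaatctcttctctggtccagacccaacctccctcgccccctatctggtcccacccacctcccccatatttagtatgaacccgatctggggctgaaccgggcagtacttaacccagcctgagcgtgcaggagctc
Mybpc2: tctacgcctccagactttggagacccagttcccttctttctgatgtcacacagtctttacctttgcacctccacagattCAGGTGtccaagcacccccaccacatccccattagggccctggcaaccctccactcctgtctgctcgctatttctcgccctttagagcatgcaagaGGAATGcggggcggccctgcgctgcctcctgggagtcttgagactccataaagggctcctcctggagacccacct
Ankrd2: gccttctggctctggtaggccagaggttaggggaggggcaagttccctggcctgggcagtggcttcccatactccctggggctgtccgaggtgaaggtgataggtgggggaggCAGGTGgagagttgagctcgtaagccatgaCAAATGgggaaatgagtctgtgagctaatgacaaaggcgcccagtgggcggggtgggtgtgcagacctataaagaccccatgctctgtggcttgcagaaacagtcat
Tnni1: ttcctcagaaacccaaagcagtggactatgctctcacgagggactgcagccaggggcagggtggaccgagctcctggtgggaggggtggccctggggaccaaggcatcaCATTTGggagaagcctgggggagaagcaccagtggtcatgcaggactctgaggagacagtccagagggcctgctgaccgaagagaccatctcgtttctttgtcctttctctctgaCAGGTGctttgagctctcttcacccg
These windows lie at chr1:211604402-211604651 on the minus strand (Actn3), chr1:104154102-104154351 on the minus strand (Mybpc2), chr1:250796169-250796418 on the plus strand (Ankrd2) and chr13:49781279-49781528 on the plus strand (Tnni1). The Actn3 window held none of the motifs searched. That of Mybpc2 held 1 E-box and 1 MCAT element, and those of Ankrd2 and Tnni1 held 2 E-boxes each. Of 33469 promoters of that length, 65.5% held an E-box, 12.1% an MCAT element and 2.96% the MEF2 motif. In the slow list 11 of 13 windows held an E-box, 1 an MCAT element and 3 the MEF2 motif. In the fast list the counts were 10, 4 and 3 of 11. These are matches of letters and not binding sites.

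The myosin heavy chains gave the clearest view of single libraries. Myh7, the slow and beta-cardiac heavy chain (ENSRNOG00000016983, chromosome 15, 33634422 to 33656089, minus strand), stood at 311, 1864, 37.6, 68.7 and 406 FPKM in gastrocnemius and 7418, 9172, 8574, 4321 and 7721 in soleus. Its log2 fold change was -3.77 ± 0.89 (-3.73) (adjusted p = 0.00444), and every soleus library lay above every gastrocnemius library. Myh4, a fast heavy chain (ENSRNOG00000049695, chromosome 10, 53713938 to 53848347, plus strand), stood at 3246, 2735, 5923, 6254 and 4177 FPKM in gastrocnemius and 95.4, 78.9, 37.1, 15.1 and 196 in soleus, with a log2 fold change of 5.93 ± 0.76 (5.72) (adjusted p = 2.85e-05). Its gene model overlaps that of Myh8, the perinatal heavy chain, on the same strand, so reads of the pair may be shared. The reverse order held in Myh4, with every gastrocnemius library at least an order of magnitude above the soleus. Myh7 made up 8.74%, 40.5%, 0.630%, 1.09% and 8.86% of the summed FPKM of Myh7 and Myh4 in gastrocnemius and 98.7%, 99.1%, 99.6%, 99.7% and 97.5% in soleus. The means were 12% ± 16.5 and 98.9% ± 0.867 (SD, n = 5 each; two-sided exact permutation p = 0.00794, the smallest that 5 against 5 can give). Other fast heavy chains were not analysed here, so these are not shares of all myosin.

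The gastrocnemius libraries differed among themselves in slow genes far more than the soleus libraries did. Library 2 was highest among them in 13 of the 14 slow genes and lowest in 12 of the 14 fast genes, and library 3 was lowest in 13 of the slow genes. The ratio of the highest to the lowest gastrocnemius library had a median of 32.5 over the slow genes, from 2.44 to 53.9. In soleus libraries 1, 2, 3 and 5 that ratio had a median of 1.16. Over the fast genes the medians were 2.30 in gastrocnemius and 2.36 in those 4 soleus libraries. Leaving out gastrocnemius library 2 therefore widened the slow gene differences: their median log2 fold change went from -3.78 to -4.89, and that of Myh7 from -3.77 to -5.11.

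**Figure D1:**
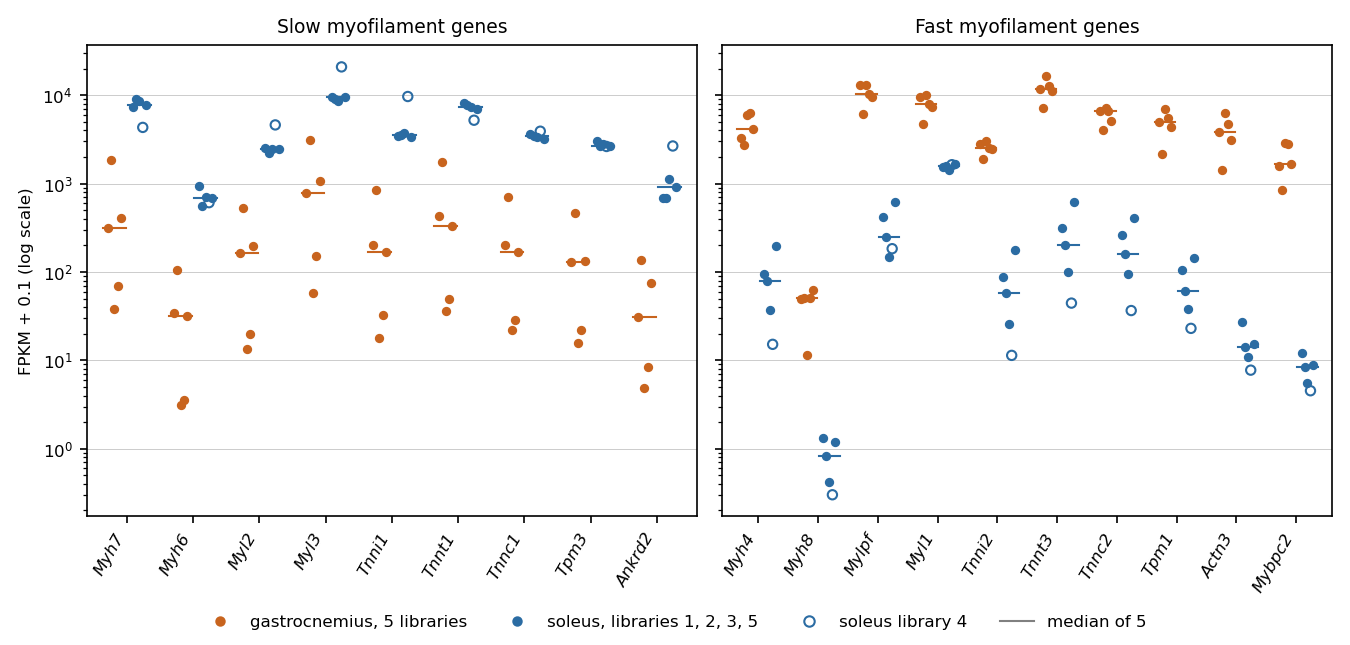
Level of slow (left) and fast (right) myofilament genes in each sham library, as FPKM + 0.1 on a log axis, with 5 gastrocnemius libraries (orange), 4 soleus libraries (filled blue), soleus library 4 (open blue) and the median of 5 as a bar. Slow genes spread widely in gastrocnemius, with Myh7 from 37.6 to 1864 FPKM, and lie close together in soleus.

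The light chains, troponins and tropomyosins followed the heavy chains. Slow troponin I (Tnni1, ENSRNOG00000009073, chromosome 13, 52624878 to 52637297, plus strand) stood at 202, 855, 18.0, 32.5 and 169.8 FPKM in gastrocnemius and 3435, 3586, 3751, 9666 and 3376 in soleus, a log2 fold change of -4.58 ± 1.00 (-3.58) (adjusted p = 0.00268). Its fast counterpart Tnni2 stood at 2807, 1892, 3061, 2535 and 2441 FPKM in gastrocnemius and 88.3, 57.4, 25.8, 11.3 and 176 in soleus, a log2 fold change of 5.35 ± 0.76 (5.13) (adjusted p = 6.80e-05). In both the muscles did not overlap. The other slow members were the ventricular and slow light chains Myl2 (-4.20 ± 0.93 (-3.49)) and Myl3 (-3.78 ± 0.93 (-2.94)), troponin T Tnnt1 (-3.80 ± 0.90 (-3.66)), troponin C Tnnc1 (-4.09 ± 0.87 (-3.71)) and tropomyosin Tpm3 (-4.25 ± 0.83 (-3.98)), each as a log2 fold change. The fast members were Myl1 (2.29 ± 0.33 (2.63)), the phosphorylatable light chain Mylpf (5.10 ± 0.66 (5.13)), Tnnt3 (5.75 ± 0.76 (5.53)), Tnnc2 (5.14 ± 0.68 (4.94)) and the tropomyosin Tpm1 (6.18 ± 0.69 (6.05)). Myl1 was the least divided of these, with 4720.3 to 10183 FPKM in gastrocnemius and 1423 to 1653 in soleus. The value of Tnni1 was -5.80 without gastrocnemius library 2, Tnnt1 -5.04, Tnnc1 -5.14, Tpm3 -5.23, Myl2 -5.07 and Myl3 -4.75. Tnnt3 and Tnni2 moved to 6.34 and 5.97 without soleus library 5.

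The largest differences of the myofilament lists were in Actn3 and Mybpc2 on the fast side and in Ankrd2 on the slow side. Actn3 (ENSRNOG00000019745, chromosome 1, 220120533 to 220136470, minus strand) stood at 3826, 1415, 6265, 4752 and 3074 FPKM in gastrocnemius and 27.3, 14.1, 10.7, 7.65 and 15.2 in soleus, a log2 fold change of 8.12 ± 1.16 (8.12) (adjusted p = 7.03e-05). Mybpc2 (ENSRNOG00000019627, chromosome 1, 100506704 to 100530183, minus strand) stood at 1577, 849.7, 2846, 2820.1 and 1657 FPKM in gastrocnemius and 11.9, 8.21, 5.50, 4.43 and 8.83 in soleus, a log2 fold change of 8.06 ± 0.97 (8.10) (adjusted p = 1.61e-05). The muscles lay far apart in both genes, in every library. Ankrd2 (ENSRNOG00000013840, chromosome 1, 261281543 to 261291394, plus strand) stood at 30.7, 138, 4.80, 8.39 and 75.5 FPKM in gastrocnemius and 685, 686, 1120.1, 2663 and 923 in soleus, a log2 fold change of -4.95 ± 1.01 (-3.84) (adjusted p = 0.00155), which was -5.70 without gastrocnemius library 2.

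Among 6 tested genes of the developing sarcomere the counts were 1 and 3, and 2 and 3 without soleus library 4, 1 and 3 with sham libraries alone and 2 and 3 with voom. Myh6, the alpha-cardiac heavy chain (ENSRNOG00000025757, chromosome 15, 33605654 to 33629699, minus strand), stood at 33.9, 105, 3.02, 3.44 and 31.6 FPKM in gastrocnemius and 937, 564, 707, 608 and 685 in soleus, a log2 fold change of -4.36 ± 0.91 (-4.14) (adjusted p = 0.00188). Cardiac actin Actc1 had -3.74 ± 0.88 (-3.29) and cardiac troponin T Tnnt2 -3.0 ± 0.61 (-2.56). Myh8 was higher in gastrocnemius, with 6.11 ± 0.59 (5.97), and the muscles did not overlap in any of these 4. Embryonic heavy chain Myh3 did not pass (log2 fold change -0.58 ± 0.61 (-0.68), adjusted p = 0.521), with 9.29 to 29.6 FPKM in gastrocnemius and 9.66 to 41.2 in soleus. The embryonic light chain Myl4 did not pass (0.54 ± 0.53 (1.35), adjusted p = 0.494) and passed without soleus library 4 (adjusted p = 0.0304). Without gastrocnemius library 2 the log2 fold change of Myh6 was -5.29 and that of Actc1 -4.55. Myh6 and Myh7 have closely similar sequences, so the split of reads between them is uncertain. A pair of entries with clone names, chosen after their values were seen, lie on the strand opposite Myh6 (AC115371.1, chromosome 15, 33606124 to 33611579) and opposite Myh7 (AC130940.1, 33632416 to 33637928). The former was listed at 0 in every gastrocnemius library and at 11.7, 24.2, 24.9, 121.6 and 16.9 FPKM in soleus. The latter had at most 0.516 FPKM in gastrocnemius and 8.77, 6.28, 12.1, 16.1 and 1.92 FPKM in soleus. The libraries are stranded, but whether the counting used strand is not given, so reads from these entries and the heavy chains cannot be told apart.

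The genes that move calcium in and out of the sarcoplasmic reticulum were divided between the muscles too. Of 20 tested, 6 were higher in gastrocnemius and 4 higher in soleus, and 12 and 4 without soleus library 4, 6 and 4 with sham libraries alone and 12 and 4 with voom. The list entry Atp2a1, the fast pump, was not matched and is not analysed here. Parvalbumin (Pvalb), the calcium buffer of fast fibres (ENSRNOG00000006471, chromosome 7, 119429019 to 119441487, minus strand), stood at 6121, 1249, 6958, 3559 and 2909 FPKM in gastrocnemius and 33.5, 15.7, 12.2, 13.1 and 21.9 in soleus, a log2 fold change of 7.82 ± 1.18 (7.92) (adjusted p = 1.24e-04). Sarcolipin (Sln), a small inhibitor of the reticulum calcium pump (ENSRNOG00000009047, chromosome 8, 58431407 to 58435654, plus strand), stood at 3.15, 18.4, 1.02, 1.58 and 10.7 FPKM in gastrocnemius and 149, 181, 179, 520.2 and 145 in soleus, a log2 fold change of -5.46 ± 0.94 (-4.33) (adjusted p = 3.84e-04). Neither gene overlapped between the muscles, and the soleus value of Sln was highest in library 4. The slow pump Atp2a2 stood at 105, 558, 22.2, 25.3 and 129.6 FPKM in gastrocnemius and 1809, 2009, 1768, 333 and 1837 in soleus, a log2 fold change of -3.07 ± 0.77 (-3.26) (adjusted p = 0.00648). In FPKM, without the TMM factors of the test, soleus library 4 was low here and lay below gastrocnemius library 2. The other 4 soleus libraries lay above all gastrocnemius libraries. The calsequestrins that store calcium in the reticulum went opposite ways, with Casq1 of fast fibres at 2.12 ± 0.35 (2.52) and Casq2 of slow and cardiac muscle at -3.14 ± 0.73 (-3.23). Ryr3, a calcium release channel, was low in both and higher in soleus (-3.21 ± 0.43 (-3.46)), with 0.139 to 0.251 FPKM in gastrocnemius and 0.223 to 3.86 in soleus. Its soleus library 4, at 0.223 FPKM, lay within the gastrocnemius range. Without gastrocnemius library 2 the values were -6.17 for Sln, -4.27 for Atp2a2 and -3.90 for Casq2.

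Glycolytic genes were higher in gastrocnemius. Of 18 tested, 14 were higher there and 1 in soleus, with a median log2 fold change of 1.97 (2.53 without soleus library 4), against 11.4% and 13.5% of all tested genes. The counts were 14 and 1 without soleus library 4, 14 and 1 with sham libraries alone and 14 and 3 with voom. Aldoa, muscle aldolase, stood at 7408, 4794, 9399, 8721 and 6878 FPKM in gastrocnemius and 1249, 1269.7, 1243, 1946 and 1161 in soleus, a log2 fold change of 2.29 ± 0.36 (2.87) (adjusted p = 1.66e-04). Pkm, pyruvate kinase, stood at 1766, 1305, 2517, 2158 and 1964 FPKM in gastrocnemius and 282, 297, 274, 161 and 298 in soleus, a log2 fold change of 2.96 ± 0.25 (3.02) (adjusted p = 4.05e-07). In both the lowest gastrocnemius library was library 2, and it still lay above every soleus library. Phosphofructokinase Pfkm had 2.56 ± 0.23 (2.57) and muscle enolase Eno3 2.59 ± 0.27 (2.77). The largest log2 fold changes were those of Pfkfb3, which makes an activator of phosphofructokinase (4.89 ± 0.75 (4.65)), the muscle fructose bisphosphatase Fbp2 (4.73 ± 0.43 (5.2)) and the glycerol phosphate shuttle pair Gpd2 (4.36 ± 0.46 (4.33)) and Gpd1 (4.22 ± 0.42 (4.18)). Fbp2 had 27.2 to 52.2 FPKM in gastrocnemius and 1.03 to 1.86 in soleus. Pfkfb2, the form known from heart, went against the list at -1.12 ± 0.23 (-1.29) (adjusted p = 0.00139), with soleus library 4 at 0.410 FPKM, below all gastrocnemius libraries.

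Glycogen genes divided in the same direction. Of 14 tested, 8 were higher in gastrocnemius and 1 in soleus, with a median of 1.28, and 8 and 2 without soleus library 4, 7 and 1 with sham libraries alone and 8 and 2 with voom. Muscle glycogen phosphorylase Pygm stood at 3624, 2432, 6080.3, 5133 and 3699 FPKM in gastrocnemius and 692, 738, 641, 434 and 718 in soleus, a log2 fold change of 2.76 ± 0.32 (2.86) (adjusted p = 9.68e-06). The phosphorylase kinase subunits Phka1 (3.09 ± 0.39 (2.88)) and Phkg1 (2.96 ± 0.37 (2.78)), and phosphoglucomutase Pgm1 (2.30 ± 0.29 (2.52)) were also higher in gastrocnemius. The branching enzyme Gbe1 was higher in soleus. It stood at 18.5, 40.5, 10.9, 15.6 and 24.4 FPKM in gastrocnemius and 89.6, 104, 105, 14.3 and 80.9 in soleus, a log2 fold change of -1.66 ± 0.35 (-1.87) (adjusted p = 0.00197). It was higher in soleus libraries 1, 2, 3 and 5 than in any gastrocnemius library, and library 4 lay within the gastrocnemius range.

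In lactate and proton handling, 3 of 11 tested genes were higher in gastrocnemius and 3 in soleus, and 3 and 4 without soleus library 4, 2 and 3 with sham libraries alone and 3 and 4 with voom. The lactate dehydrogenase subunits went opposite ways. Ldha, the form that favours lactate production, stood at 1566, 1087, 1796, 1249 and 1317 FPKM in gastrocnemius and 196, 183, 175, 82.6 and 208 in soleus, a log2 fold change of 3.16 ± 0.23 (3.14) (adjusted p = 1.03e-07). Ldhb, the heart form, stood at 97.0, 366, 7.96, 19.7 and 129.8 FPKM in gastrocnemius and 902, 958, 919.9, 864 and 1016 in soleus, a log2 fold change of -2.98 ± 0.79 (-2.72) (adjusted p = 0.00952). The muscles overlapped in neither, and Ldhb spread far more among gastrocnemius libraries than among soleus libraries. The lactate exporter Slc16a3 had 4.33 ± 0.40 (4.27) and carbonic anhydrase 3 (Ca3), an abundant protein of slow fibres, -2.83 ± 0.29 (-2.73), with 1144 to 3004 FPKM in gastrocnemius and 7948 to 14499 in soleus. The value of Ldhb was -3.90 without gastrocnemius library 2.

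Genes of fatty acid oxidation were higher in soleus, though by less than the contractile genes. Of 22 tested, 16 were higher in soleus and 1 in gastrocnemius, with a median log2 fold change of -1.0. Counts were 1 and 14 without soleus library 4, 0 and 6 with sham libraries alone and 1 and 15 with voom. The median without soleus library 4 was -0.67. The trifunctional protein subunit Hadhb stood at 202, 380.3, 214, 235 and 249 FPKM in gastrocnemius and 421, 462, 497, 396 and 537 in soleus, a log2 fold change of -0.87 ± 0.23 (-0.65) (adjusted p = 0.00928). Long-chain acyl-CoA dehydrogenase Acadl had -0.96 ± 0.25 (-0.94), the thiolase Acaa2 -1.36 ± 0.36 (-0.88) and the thioesterase Acot2 -1.45 ± 0.30 (-1.12). The isomerase Eci1 stood at 49.7, 68.9, 40.5, 50.8 and 50.3 FPKM in gastrocnemius and 123, 113, 112, 493 and 159 in soleus, a log2 fold change of -2.35 ± 0.52 (-1.03) (adjusted p = 0.00289). Library 4 was far above the other soleus libraries, and these too lay above gastrocnemius. Short-chain dehydrogenase Acads behaved alike (-1.65 ± 0.45 (-0.64)). Medium-chain dehydrogenase Acadm did not pass (-0.13 ± 0.26 (-0.22), adjusted p = 0.746). Ucp3, the mitochondrial uncoupling protein of muscle, went against the list: it stood at 35.6, 41.6, 64.6, 121 and 70.0 FPKM in gastrocnemius and 5.52, 13.2, 18.6, 22.5 and 31.9 in soleus, a log2 change of 1.76 ± 0.48 (2.21) (adjusted p = 0.0120), and every gastrocnemius library was above every soleus library.

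Upstream of oxidation, 7 of 13 tested genes of oxygen and fatty acid uptake were higher in soleus and 0 in gastrocnemius, against 13.5% and 11.4% of all tested genes. These became 0 and 5 without soleus library 4, 0 and 3 with sham libraries alone and 0 and 8 with voom. Lipoprotein lipase Lpl stood at 39.95, 157, 18.3, 18.5 and 52.2 FPKM in gastrocnemius and 373, 412, 359, 84.7 and 431 in soleus, a log2 fold change of -2.40 ± 0.52 (-2.56) (adjusted p = 0.00236). The heart-type fatty acid binding protein Fabp3 stood at 162, 705, 65.7, 152 and 281 FPKM in gastrocnemius and 931, 1114, 1175, 2699 and 1456 in soleus, a log2 fold change of -2.73 ± 0.64 (-1.88) (adjusted p = 0.00431). In FPKM, without the TMM factors of the test, Lpl in soleus library 4 lay below gastrocnemius library 2. Fabp3 was highest in soleus library 4. The transporter Slc27a1 had -1.98 ± 0.48 (-1.46). Without gastrocnemius library 2, Lpl had -3.18 and Fabp3 -3.42. Myoglobin (Mb), which stores oxygen in fibres, did not pass, at 4339, 8861, 1495, 4789 and 7585 FPKM in gastrocnemius and 8168, 7223, 7663, 8502 and 8284 in soleus, a log2 fold change of -0.64 ± 0.37 (-0.30) (adjusted p = 0.213). Gastrocnemius library 2 had the highest Mb of all 10 libraries and library 3 the lowest.

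Ketone and branched chain use had 1 of 13 tested genes higher in gastrocnemius and 5 in soleus with all libraries, 2 and 4 without soleus library 4, 0 and 1 with sham libraries alone and 2 and 6 with voom. The ketone enzyme Bdh1 had a log2 fold change of -2.70 ± 0.73 (-2.83), with 0.154 to 3.41 FPKM in gastrocnemius and 2.88 to 13.1 in soleus, which was -3.39 without gastrocnemius library 2. Oxct1, which follows it, did not pass with all libraries (-0.93 ± 0.38 (-1.16), adjusted p = 0.0836) and passed without soleus library 4 (adjusted p = 0.0108). Bckdhb, a subunit of the branched chain dehydrogenase, was higher in gastrocnemius (0.66 ± 0.19 (0.78)).

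In the tricarboxylic acid cycle 2 of 19 tested genes were higher in each muscle, with a median of 0.08, a share near the 11.4% and 13.5% of all tested genes. The counts were 4 and 2 without soleus library 4, 1 and 1 with sham libraries alone and 7 and 3 with voom. The mitochondrial isocitrate dehydrogenases went opposite ways. The NADP form Idh2 stood at 285, 648, 233, 228 and 384 FPKM in gastrocnemius and 942, 1057, 1117, 748 and 1032 in soleus, a log2 change of -1.46 ± 0.28 (-1.30) (adjusted p = 9.01e-04), and the NAD form subunit Idh3a at 131, 144, 143, 134 and 149.5 FPKM in gastrocnemius and 61.0, 58.7, 58.6, 33.1 and 69.8 in soleus, a log2 fold change of 1.39 ± 0.12 (1.44) (adjusted p = 4.05e-07). In each all 5 libraries of a muscle lay on the same side. The succinyl-CoA ligase subunit Sucla2 had 0.79 ± 0.18 (0.62), and malate dehydrogenase Mdh2 did not pass (0.05 ± 0.17 (0.26)).

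Of 31 tested nuclear genes of oxidative phosphorylation, 5 were higher in soleus and 0 in gastrocnemius, with a median of -0.38. Without soleus library 4, 0 of the 31 passed by edgeR, with 2 at an unadjusted p under 0.05, and the median was -0.05. With sham libraries alone 0 passed, with 4 at an unadjusted p under 0.05, and with voom the counts were 2 and 0. The muscle-type cytochrome oxidase subunit Cox6a2 stood at 746, 565, 448, 509 and 428 FPKM in gastrocnemius and 776, 688, 671, 3485 and 682 in soleus, a log2 fold change of -1.69 ± 0.55 (-0.13) (adjusted p = 0.0322). Soleus library 4 was far above the other soleus libraries, which overlapped gastrocnemius. Cox8b followed the same pattern (-1.51 ± 0.51 (-0.36)). Both also lost the call (adjusted p of 0.05 or more) when any of gastrocnemius libraries 2 to 5 was left out, with log2 fold changes of -1.61 to -1.69 for Cox6a2 and -1.38 to -1.58 for Cox8b. The ATP synthase subunits Atp5f1a (0.16 ± 0.15 (0.15)) and Atp5f1b (-0.07 ± 0.18 (0.14)) did not pass. Of 13 mitochondrially encoded genes 0 passed by edgeR or DESeq2, and DESeq2 gave no adjusted p for 2 of them. By either test 0 had an unadjusted p under 0.05, and the median was -0.44 by edgeR. Without soleus library 4 the median was 0.35, with 3 higher in gastrocnemius. With voom quality weights, which gave that library a weight of 0.0315 against 0.388 to 3.58 for the other libraries, 8 were higher in gastrocnemius. Mt-co1 had -0.48 ± 0.29 (-0.13). Mt-nd2 turned from -0.58 to 0.68, where it passed (adjusted p = 0.0192).

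**Figure D2:**
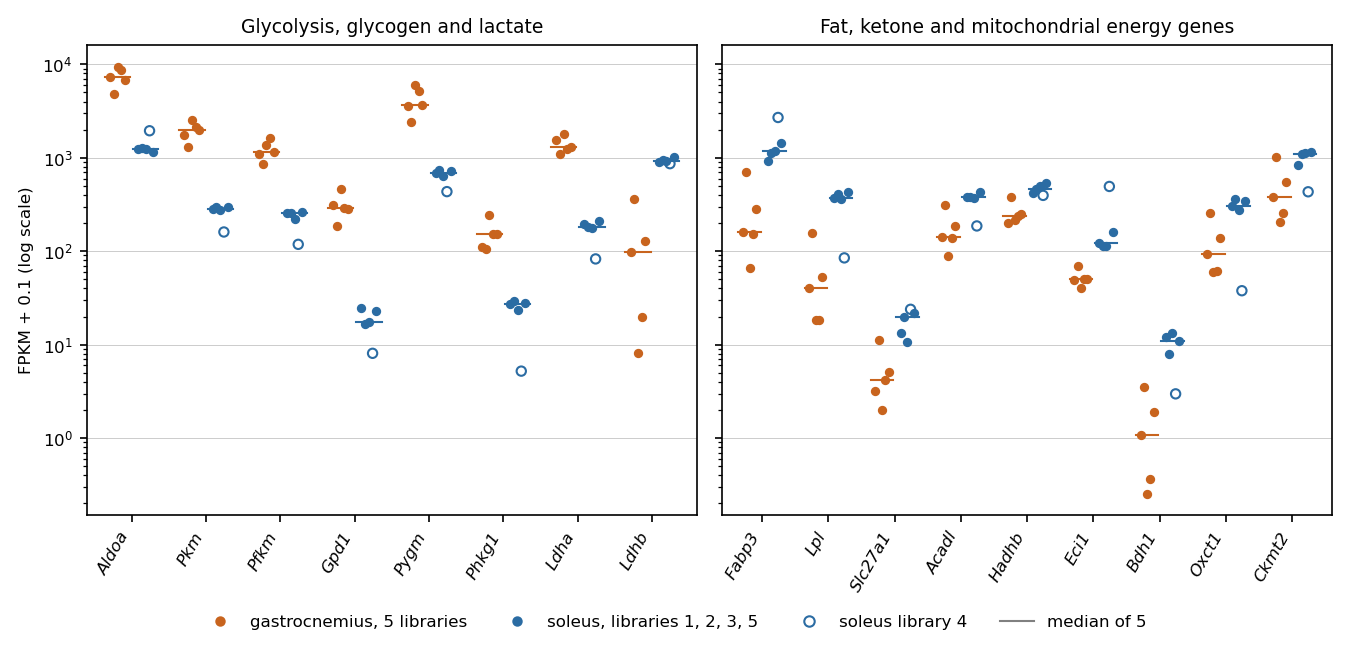
Level of glycolytic, glycogen and lactate genes (left) and of fat, ketone and mitochondrial energy genes (right) in each sham library, as FPKM + 0.1 on a log axis, with groups, open circle and median bars as in the plot of myofilament genes. The glycolytic genes shown do not overlap between muscles, whereas Ckmt2 and Acadl do.

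Among enzymes that choose between fuels, 4 of 16 were higher in each muscle, and 4 and 3 without soleus library 4, 2 and 3 with sham libraries alone and 5 and 4 with voom. The gastrocnemius side held the AMP-activated kinase subunits Prkag3 and Prkab2. Prkag3, the regulatory subunit known from fast glycolytic muscle, stood at 44.3, 19.8, 121, 68.2 and 45.6 FPKM in gastrocnemius and 4.02, 3.67, 3.76, 1.67 and 4.82 in soleus, a log2 change of 4.19 ± 0.56 (4.16) (adjusted p = 3.95e-05), and Prkab2 had 2.65 ± 0.35 (2.46). The soleus side held the pyruvate dehydrogenase kinase Pdk1 (-1.68 ± 0.22 (-1.76)) and the phosphatase Pdp2 (-2.35 ± 0.54 (-2.57)). In both, soleus library 4 overlapped gastrocnemius in FPKM, which does not carry the TMM factors of the test. Pdk4, the starvation-responsive kinase, did not pass (-0.20 ± 0.63 (-0.50), adjusted p = 0.849), with 88.3 to 378 FPKM in gastrocnemius and 9.61 to 555 in soleus. The insulin-responsive glucose transporter Slc2a4 did not pass either (-0.37 ± 0.20 (-0.08)).

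Of 9 tested genes of the phosphate energy buffer, 2 were higher in gastrocnemius and 1 in soleus, and 2 and 1 without soleus library 4, 1 and 1 with sham libraries alone and 4 and 2 with voom. Cytosolic creatine kinase Ckm stood at 17939.9, 13157, 23844, 19408 and 16299.6 FPKM in gastrocnemius and 5858, 5664, 5034, 9834 and 6256 in soleus, a log2 fold change of 1.3 ± 0.36 (1.94) (adjusted p = 0.0132). The AMP deaminases went opposite ways. Ampd1, the muscle form, had 2.08 ± 0.31 (1.97), and Ampd3, known from red blood cells, had -3.42 ± 0.50 (-3.43), with 0.855 to 7.23 FPKM in gastrocnemius and 16.7 to 48.1 in soleus (-4.05 without gastrocnemius library 2). Mitochondrial creatine kinase Ckmt2 (-0.87 ± 0.35 (-0.90), adjusted p = 0.0743) and the ADP/ATP carrier Slc25a4 (0.18 ± 0.13 (0.24)) did not pass. Ckmt2 passed when gastrocnemius library 2 was left out.

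**Figure D3:**
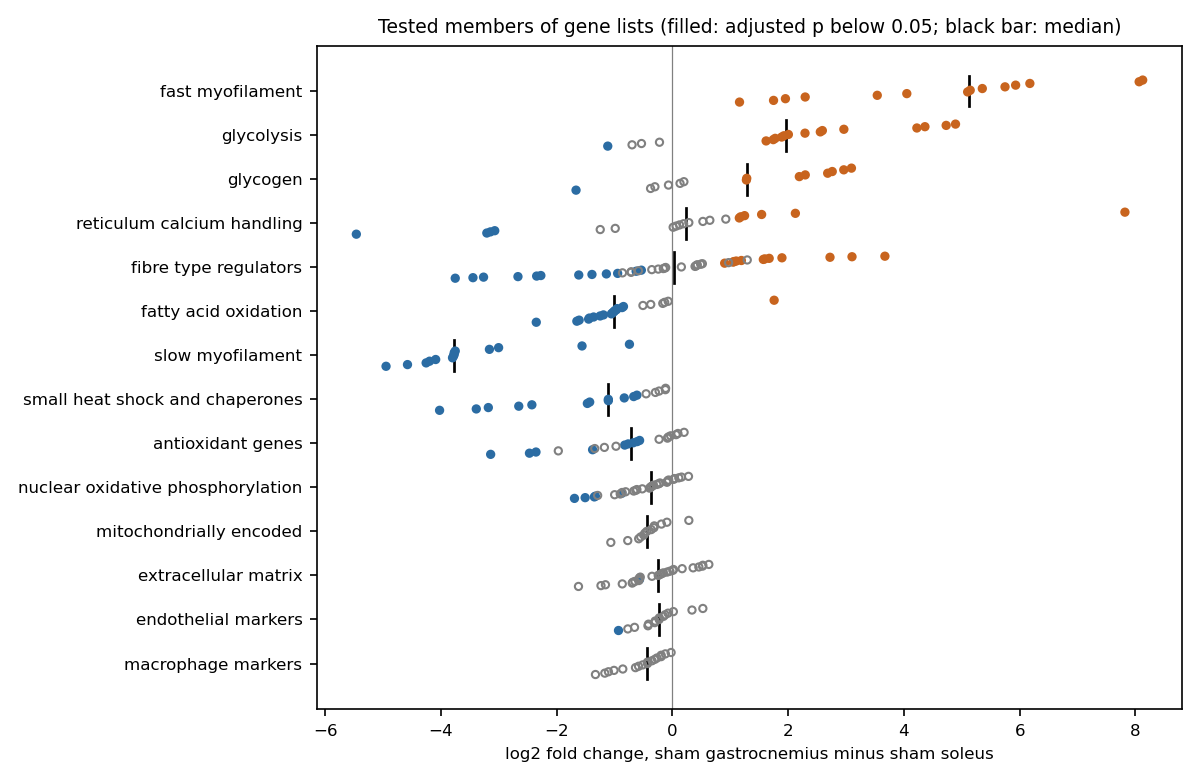
Log2 fold change (gastrocnemius minus soleus, horizontal axis) of each tested member of 14 gene lists. Filled points are called, orange when higher in gastrocnemius and blue when higher in soleus, open grey points are not, and black bars are list medians, from 5.12 for fast to -3.78 for slow myofilament genes.

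Regulators of fibre type were called in both directions. Of 42 tested, 12 were higher in gastrocnemius and 12 higher in soleus, with a median of 0.02. With library totals as the scaling the counts were 9 and 12, and they were 13 and 13 without soleus library 4, 9 and 4 with sham libraries alone and 15 and 17 with voom. Sox6, which represses slow genes in mice, stood at 2.63, 4.74, 8.02, 8.86 and 8.22 FPKM in gastrocnemius and 0.972, 1.18, 0.724, 0.167 and 1.26 in soleus, a log2 fold change of 3.10 ± 0.36 (2.91) (adjusted p = 1.20e-05). The muscles did not overlap in Sox6. Tbx15, a T-box factor known from glycolytic fibres of mice, had 1.06 ± 0.27 (0.85), with gastrocnemius libraries 1 and 2 overlapping soleus library 5. Mafa, a large Maf factor, had the largest positive log2 fold change of the list, 3.67 ± 0.38 (3.74) (adjusted p = 3.02e-06), with 9.32 to 24.6 FPKM in gastrocnemius and 0.930 to 1.98 in soleus. The calcineurin subunit Ppp3cb was higher in gastrocnemius (1.60 ± 0.37 (1.32)), whereas Rcan1, a calcineurin inhibitor that is itself induced by calcineurin, was higher in soleus.

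Rcan1 stood at 33.0, 166, 16.8, 19.3 and 63.7 FPKM in gastrocnemius and 341, 519, 428, 210.4 and 459.9 in soleus, a log2 fold change of -2.67 ± 0.53 (-2.65) (adjusted p = 0.00127). Prox1, a homeodomain factor of slow muscle in mice and fish, stood at 0.403, 1.12, 0.167, 0.366 and 0.342 FPKM in gastrocnemius and 7.19, 6.38, 6.44, 0.263 and 6.48 in soleus, a log2 fold change of -3.26 ± 0.59 (-3.55) (adjusted p = 5.58e-04). Soleus library 4 had as little Prox1 as the gastrocnemius, and the other 4 soleus libraries lay far above it. The orphan nuclear receptor Esrrb (-3.45 ± 1.00 (-3.76)) was listed at 0 in gastrocnemius library 3 and soleus library 4, with at most 0.524 FPKM in gastrocnemius and 1.90 to 3.10 FPKM in the other soleus libraries. Lmcd1, a LIM-domain protein, had -2.27 ± 0.67 (-2.12) (adjusted p = 0.0189). Ppargc1a, the coactivator of mitochondrial genes, did not pass, at 1.89, 7.77, 2.67, 4.62 and 5.04 FPKM in gastrocnemius and 3.96, 4.19, 3.59, 1.09 and 5.26 in soleus, a log2 fold change of 0.42 ± 0.34 (0.29) (adjusted p = 0.384). Its partner Perm1 passed only without gastrocnemius library 2 or soleus library 4 (-0.86 ± 0.40 (-1.06), adjusted p = 0.123 with all). Without gastrocnemius library 2 the log2 fold changes were -3.47 for Rcan1, -4.53 for Esrrb and -3.0 for Lmcd1.

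Of 12 tested myogenic factors and satellite cell genes, 1 was higher in gastrocnemius and 3 in soleus, and 2 and 4 without soleus library 4, 1 and 3 with sham libraries alone and 2 and 4 with voom. The myogenic factors Myod1 and Myog went opposite ways. Myod1 stood at 10.3, 7.41, 10.0, 10.9 and 13.6 FPKM in gastrocnemius and 3.07, 1.66, 1.43, 3.39 and 3.04 in soleus, a log2 change of 1.92 ± 0.39 (2.44) (adjusted p = 0.00161), and Myog, myogenin, at 3.35, 13.5, 7.15, 2.55 and 6.58 FPKM in gastrocnemius and 26.9, 40.1, 36.5, 53.2 and 44.5 in soleus, a log2 fold change of -2.75 ± 0.44 (-2.24) (adjusted p = 2.31e-04). The muscles overlapped in neither gene. Myf5 had -1.94 ± 0.39 (-1.53), and the adhesion molecule Ncam1, which marks satellite cells and denervated fibres, -1.91 ± 0.49 (-2.05). The satellite cell factor Pax7 did not pass with all libraries (-0.75 ± 0.39 (-1.01), adjusted p = 0.166) and passed without soleus library 4.

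**Figure D4:**
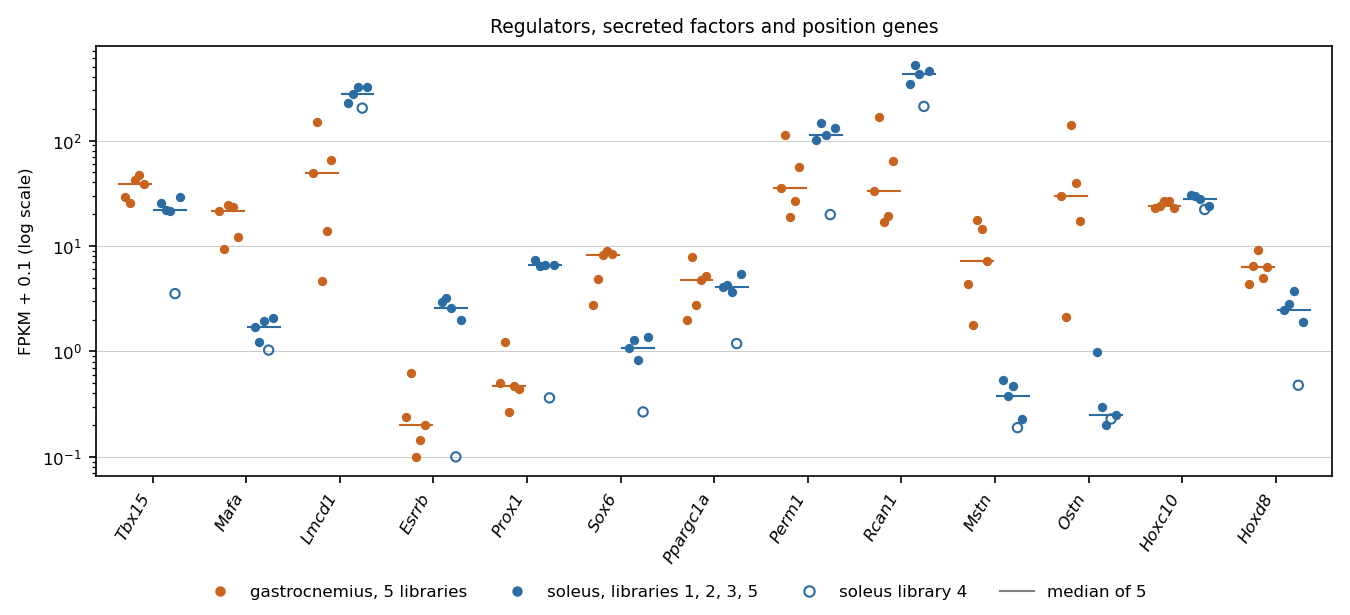
Level of regulators of fibre type, of the secreted factors Mstn and Ostn and of limb position genes in each sham library, as FPKM + 0.1 on a log axis, with groups, open circle and median bars as in the plot of myofilament genes. Sox6 and Mafa lie higher in gastrocnemius and Rcan1 in soleus, while Ppargc1a and Hoxc10 overlap.

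Of 27 genes found that mark position in the limb, 12 passed the filter, of which 1 was higher in gastrocnemius and 3 in soleus, and 2 and 1 without soleus library 4, 1 and 1 with sham libraries alone and 4 and 2 with voom. Of all tested genes 24.9% were called. Hoxc10, a hindlimb Hox gene, did not pass, at 23.0, 23.6, 26.4, 26.5 and 22.7 FPKM in gastrocnemius and 30.3, 29.4, 27.9, 22.1 and 23.8 in soleus, with a log2 fold change of -0.12 ± 0.15 (0.08) (adjusted p = 0.605). Hoxd8 was higher in gastrocnemius (1.68 ± 0.34 (1.48), adjusted p = 0.00132). The homeodomain factor Pitx3 was called with all libraries and not without soleus library 4 (-3.12 ± 0.79 (-1.09)). Hoxa13, a gene of the distal limb, did not pass (1.5 ± 0.61 (1.3), adjusted p = 0.0772), and it passed without gastrocnemius library 2. Pitx1, the hindlimb selector, did not pass the filter.

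Of 19 membrane excitation genes, 8 were higher in gastrocnemius and 4 in soleus, with library totals 5 and 5, and 9 and 6 without soleus library 4, 6 and 2 with sham libraries alone and 9 and 6 with voom. The sodium pump beta subunit Atp1b2 stood at 142, 48.4, 228, 162 and 159 FPKM in gastrocnemius and 5.41, 3.78, 2.76, 4.3 and 4.28 in soleus, a log2 fold change of 5.13 ± 0.64 (5.46) (adjusted p = 2.05e-05). The beta subunit Atp1b1 had a negative value, -1.70 ± 0.65 (-1.82), which did not pass (adjusted p = 0.0627) and passed, at -2.43, without gastrocnemius library 2 and, at -1.82, without soleus library 4. The fast potassium channel Kcnc4 (3.25 ± 0.35 (3.10)) and the syntrophin Sntb1 (4.08 ± 0.65 (3.80)) were higher in gastrocnemius. The calcium-activated channel Kcnn3 (-1.15 ± 0.21 (-1.15)) was higher in soleus, and its soleus library 4 did not lie above the gastrocnemius range.

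At the neuromuscular junction 1 of 13 tested genes was higher in gastrocnemius and 3 in soleus, near the 24.9% of all tested genes called, and 3 and 3 without soleus library 4, 1 and 3 with sham libraries alone and 3 and 5 with voom. The median was -0.07, and 0.11 without soleus library 4. Acetylcholinesterase Ache and its collagen tail Colq went opposite ways. Ache stood at 14.7, 10.5, 21.3, 12.3 and 11.5 FPKM in gastrocnemius and 4.31, 3.78, 3.68, 5.73 and 7.07 in soleus, a log2 change of 1.44 ± 0.32 (1.84) (adjusted p = 0.00298), and Colq at 0.461, 3.72, 0.970, 0.283 and 1.21 FPKM in gastrocnemius and 27.0, 30.0, 31.3, 7.13 and 25.6 in soleus, a log2 fold change of -4.06 ± 0.75 (-4.20) (adjusted p = 7.36e-04). The muscles did not overlap in either. The acetylcholine receptor subunits Chrnd and Chrna1 were higher in soleus. Chrnd stood at 1.19, 12.1, 1.84, 1.36 and 3.21 FPKM in gastrocnemius and 22.7, 36.3, 41.6, 63.5 and 39.5 in soleus, a log2 change of -3.60 ± 0.75 (-2.93) (adjusted p = 0.00177), and Chrna1 had -2.83 ± 0.54 (-2.42). Without gastrocnemius library 2 the value of Colq was -4.86 and that of Chrnd -4.60.

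Of 20 genes of muscle size and atrophy, 5 were higher in gastrocnemius and 2 in soleus, with library totals 2 and 1, and 5 and 3 without soleus library 4, 3 and 1 with sham libraries alone and 5 and 4 with voom. Myostatin (Mstn), the secreted brake on muscle growth (ENSRNOG00000021294, chromosome 9, 53309598 to 53315915, minus strand), stood at 4.25, 1.67, 17.4, 14.3 and 7.09 FPKM in gastrocnemius and 0.432, 0.275, 0.373, 0.0893 and 0.128 in soleus, a log2 fold change of 5.26 ± 0.87 (5.17) (adjusted p = 2.75e-04). The highest soleus library, at 0.432 FPKM, lay below the lowest gastrocnemius library. Mettl21c, a lysine methyltransferase of muscle, stood at 14.1, 20.4, 28.0, 8.17 and 14.2 FPKM in gastrocnemius and 121, 203, 292, 84.6 and 179.6 in soleus, a log2 fold change of -3.27 ± 0.39 (-3.29) (adjusted p = 1.44e-05), with no overlap. The atrophy ligase Trim63 differed by less and the muscles overlapped (0.68 ± 0.19 (0.68), adjusted p = 0.0132).

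Chaperones were higher in soleus. Of 17 tested, 12 were higher there and 0 in gastrocnemius, with a median of -1.11, which was -0.71 without soleus library 4. The counts went to 0 and 11 without soleus library 4, 0 and 7 with sham libraries alone and 0 and 12 with voom. Alpha-B crystallin Cryab, a desmin chaperone (ENSRNOG00000010524, chromosome 8, 55178289 to 55182545, plus strand), stood at 479, 1120.0, 164, 197 and 506 FPKM in gastrocnemius and 2669, 3223, 4175, 7808 and 3161 in soleus, a log2 fold change of -3.39 ± 0.60 (-2.52) (adjusted p = 4.94e-04). The small heat shock proteins Hspb6 (-3.18 ± 0.56 (-2.23)) and Hspb7 (-4.02 ± 0.82 (-2.86)) followed it. All 3 were highest in soleus library 4, and the other 4 soleus libraries lay above every gastrocnemius library.

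Antioxidant genes showed 0 of 20 higher in gastrocnemius and 9 in soleus with all libraries, 2 and 7 without soleus library 4, 0 and 3 with sham libraries alone and 2 and 9 with voom. Nqo1, a quinone reductase and target of Nrf2, stood at 7.93, 10.6, 6.23, 7.06 and 7.27 FPKM in gastrocnemius and 48.3, 49.1, 47.5, 29.5 and 29.7 in soleus, a log2 fold change of -2.36 ± 0.22 (-2.23) (adjusted p = 1.17e-06). Glutathione peroxidase Gpx1 had -3.14 ± 0.60 (-2.35) (-3.80 without gastrocnemius library 2) and the glutathione transferase Gsta4 -2.47 ± 0.33 (-2.27). None of these 3 overlapped between muscles.

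Immediate early, clock and vascular genes were called at shares below or near the 24.9% of all tested genes. Of 16 immediate early genes 2 were higher in soleus, among them Ier3 (-1.44 ± 0.37 (-1.02)), and 1 and 1 without soleus library 4, 0 and 2 with sham libraries alone and 1 and 3 with voom. Of 19 clock genes 3 were higher in gastrocnemius and 1 in soleus, and 2 and 2 without soleus library 4, 2 and 1 with sham libraries alone and 4 and 3 with voom. Among those called with all libraries were Bhlhe41 at 2.31 ± 0.51 (2.13), Tef at 1.16 ± 0.28 (1.19) and the repressor Cry2 at -0.79 ± 0.13 (-0.84). Of 22 genes of vascular growth 2 were higher in gastrocnemius and 3 in soleus, and 3 and 6 without soleus library 4, 1 and 3 with sham libraries alone and 3 and 9 with voom. Vegfa, the main vessel growth factor, did not pass, at 44.3, 113, 20.2, 32.7 and 52.7 FPKM in gastrocnemius and 65.8, 79.7, 59.6, 11.6 and 82.8 in soleus, a log2 fold change of -0.02 ± 0.37 (-0.22) (adjusted p = 0.971). Fgf1 stood at 2.47, 11.3, 1.19, 1.77 and 3.25 FPKM in gastrocnemius and 17.1, 34.8, 36.5, 14.5 and 25.5 in soleus, a log2 change of -2.64 ± 0.55 (-2.61) (adjusted p = 0.00185), and no gastrocnemius library reached the lowest soleus library. It was -3.47 without gastrocnemius library 2. Angptl4, an inhibitor of lipoprotein lipase, had -2.26 ± 0.58 (-1.57), and neuronal nitric oxide synthase Nos1, which sits at the fibre membrane, 2.45 ± 0.67 (2.15).

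Markers of the cells between fibres are given with the summed level of each list, first the range in gastrocnemius, then the range in soleus libraries 1, 2, 3 and 5, then soleus library 4. Each sum covers all list members that were found, tested or not. Of 15 endothelial markers 1 was higher in soleus, von Willebrand factor Vwf (-0.94 ± 0.23 (-0.91)), with 0 and 2 without soleus library 4, 0 and 1 with sham libraries alone and 0 and 8 with voom. The summed list was 39.4 to 86.3, 75.1 to 95.4 and 44.5 FPKM. Of 12 mural markers, Cspg4 (-1.84 ± 0.36 (-1.79)) was higher in soleus and Lmod1 (2.53 ± 0.48 (2.60)) in gastrocnemius, and the list had 1 and 1 without soleus library 4, 1 and 1 with sham libraries alone and 1 and 2 with voom. It had sums of 102 to 182, 139 to 199.9 and 80.1 FPKM. Of 15 fibroblast markers, Osr1 (2.08 ± 0.28 (2.27)) was higher in gastrocnemius and Pi16 (-2.29 ± 0.68 (-0.94)) in soleus, the latter lost without soleus library 4 or gastrocnemius library 3 (-2.17). The fibroblast list had 1 and 0 without soleus library 4, 1 and 0 with sham libraries alone and 1 and 0 with voom. Its sums were 302 to 1184, 652 to 1089 and 723 FPKM, and Ly6al was at 0 in all 10 libraries. Decorin (Dcn), the most abundant of them, did not pass (0.06 ± 0.34 (0.14), adjusted p = 0.916). Of 27 matrix genes 1 was called, the laminin chain Lamb2 (-0.57 ± 0.13 (-0.56)), higher in soleus, and the list had 0 and 3 without soleus library 4, 0 and 1 with sham libraries alone and 0 and 9 with voom.

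The highest summed macrophage, lymphocyte and mast cell, and erythrocyte levels of all 10 libraries were in soleus library 4. Of 17 macrophage and 5 erythrocyte markers 0 passed by edgeR, with 1 and 0 at an unadjusted p under 0.05. DESeq2 called 0 of either, and voom called 0 and 1. Sums were 76.3 to 288, 102 to 221 and 362 FPKM for macrophages and 189 to 1180.2, 624 to 901 and 1727 FPKM for erythrocytes. Of 9 tendon markers Scx was called and lost without soleus library 4 (-2.38 ± 0.64 (-0.93)), and the counts were 1 and 0 without soleus library 4, 0 and 0 with sham libraries alone and 1 and 2 with voom. Sums were 19.9 to 185, 71.7 to 129 and 94.8 FPKM. Of 6 Schwann and nerve markers Cnp was higher in soleus (-1.96 ± 0.32 (-1.60)), and the list had 0 and 1 without soleus library 4, 0 and 1 with sham libraries alone and 0 and 2 with voom, with sums of 9.27 to 56.0, 38.5 to 55.2 and 34.3 FPKM. Of 5 tested lymphocyte and mast cell markers 1 was higher in soleus, a call that without soleus library 4, with sham libraries alone and with voom was lost. The list summed, with the untested ones, to 3.68 to 18.7, 8.38 to 22.1 and 23.2 FPKM, and Mcpt1 was at 0 in all 10 libraries. Of 12 adipocyte markers 1 was higher in gastrocnemius and 2 in soleus, and 1 and 1 without soleus library 4, 1 and 1 with sham libraries alone and 1 and 4 with voom. Adipogenin (Adig) stood at 7.70, 14.9, 8.30, 7.46 and 17.4 FPKM in gastrocnemius and 1.22, 0, 0.299, 0.747 and 1.67 in soleus, a log2 change of 3.76 ± 0.82 (3.99) (adjusted p = 0.00253), and the lipid droplet protein Cidea at 2.07, 5.04, 0.202, 0.531 and 1.00 FPKM in gastrocnemius and 13.8, 10.3, 22.3, 45.9 and 18.9 in soleus, a log2 fold change of -3.99 ± 0.83 (-2.97) (adjusted p = 0.00186). These 2 went opposite ways, without overlap, and the adipocyte sums were 64.4 to 226, 138 to 272 and 129 FPKM. Cidea had -4.82 without gastrocnemius library 2. The part of these cells in the muscle differences was not tested.

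Outside the myofilament and calcium lists, the genes with the largest differences at 5 FPKM or more included secreted, signalling and transport genes. Ostn, musclin or osteocrin, a peptide secreted by muscle (ENSRNOG00000030462, chromosome 11, 76851322 to 76888178, minus strand), stood at 29.8, 2.04, 139.9, 39.6 and 17.1 FPKM in gastrocnemius and 0.892, 0.196, 0.0984, 0.129 and 0.149 in soleus, a log2 fold change of 7.41 ± 1.09 (7.38) (adjusted p = 9.53e-05). Gastrocnemius ranged from 2.04 FPKM in library 2 to 140 in library 3, and its log2 fold change was 6.33 without gastrocnemius library 3 and 8.29 without soleus library 1. Mss51, a zinc finger protein of skeletal muscle mitochondria (ENSRNOG00000007632, chromosome 15, 4240203 to 4252072, plus strand), stood at 131, 76.7, 225, 270.2 and 169.9 FPKM in gastrocnemius and 3.23, 2.87, 3.30, 1.39 and 3.49 in soleus, a log2 fold change of 6.05 ± 0.50 (6.03) (adjusted p = 4.05e-07). The homeodomain factor Six2 (6.31 ± 0.99 (6.41)) and the surface glycoprotein Cd24 (6.28 ± 0.54 (6.20)) were also higher in gastrocnemius. Cd24 had 16.7 to 62.4 FPKM in gastrocnemius and 0.171 to 0.846 in soleus.

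On the soleus side, Slc4a3, an anion exchanger (ENSRNOG00000020138, chromosome 9, 82741920 to 82755153, plus strand), stood at 2.06, 4.01, 0.557, 0.916 and 1.86 FPKM in gastrocnemius and 40.5, 47.0, 47.6, 51.1 and 34.1 in soleus, a log2 fold change of -4.67 ± 0.60 (-4.26) (adjusted p = 2.85e-05). Fhl2, a LIM-domain protein best known from the heart, stood at 1.44, 9.14, 0.505, 0.473 and 1.33 FPKM in gastrocnemius and 59.0, 76.5, 84.8, 54.2 and 54.1 in soleus, a log2 fold change of -4.72 ± 0.81 (-4.53) (adjusted p = 3.82e-04). Both were separated in every library. Eps8l2, an actin regulator (-5.41 ± 0.76 (-4.42)), the kinase Sbk3 (-4.71 ± 0.94 (-4.79)), the aquaglyceroporin Aqp7 (-4.54 ± 1.00 (-3.52)) and the zinc finger protein Zfp385a (-4.46 ± 0.68 (-3.37)) were also higher in soleus. Aqp7 was listed at 0 in gastrocnemius library 3. Without gastrocnemius library 2 the values were -6.11 for Fhl2, -6.02 for Eps8l2, -5.93 for Sbk3 and -5.50 for Aqp7.

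The same muscle difference was measured in the 10 libraries of the ischemia groups, which share the fit and its estimate of spread with the sham comparison. There 1473 genes were called (12.6%), 920 higher in gastrocnemius (7.87%) and 553 higher in soleus (4.73%). That count was 849 without ischemia gastrocnemius library 2 and 3784 without sham soleus library 4, which enters this contrast only through the shared fit. Of the 2911 sham calls, 1118 were called there with the same sign, which is 38.4% of the sham calls and 75.9% of the ischemia calls, and 0 with the opposite sign. Without sham soleus library 4, 2631 were called in both with the same sign, which is 63.6% of the sham calls and 69.5% of the ischemia calls, and 1 with the opposite sign. In sign alone 2817 of the sham calls (96.8%) were the same. The share with the same sign over all tested genes is not given here, so that percentage has no background to be read against. All 14 fast myofilament genes were called there too, with a median of 4.40, while 2 of the 14 slow genes were, with a median of -2.19. Glycolysis had 14 called in gastrocnemius as in sham. Fatty acid oxidation had 1 called in soleus, with a median of -0.20. Myh7 had a log2 fold change of -2.34 ± 0.83 in ischemia (adjusted p = 0.0741) against -3.77 in sham, and Actn3 5.25 ± 1.02 against 8.12.

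Whether the muscle difference itself differed between sham and ischemia was tested directly. By edgeR 0 genes passed (0%), with 758 at an unadjusted p under 0.05. DESeq2 called 2, and edgeR called 1 without sham soleus library 4, 1 without sham gastrocnemius library 2 and 1 with library totals. For Myh7 the difference between the log2 fold changes, sham minus ischemia, was -1.43 ± 1.13 (SE, adjusted p = 0.769), for Actn3 2.87 ± 1.22 and for Ankrd2 -2.71 ± 1.23. The higher number of calls in sham than in ischemia with the main fit therefore does not show which genes differ between them. That order was not kept under every alternative: library totals gave 2431 calls in sham and 2633 in ischemia.

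**Figure D5:**
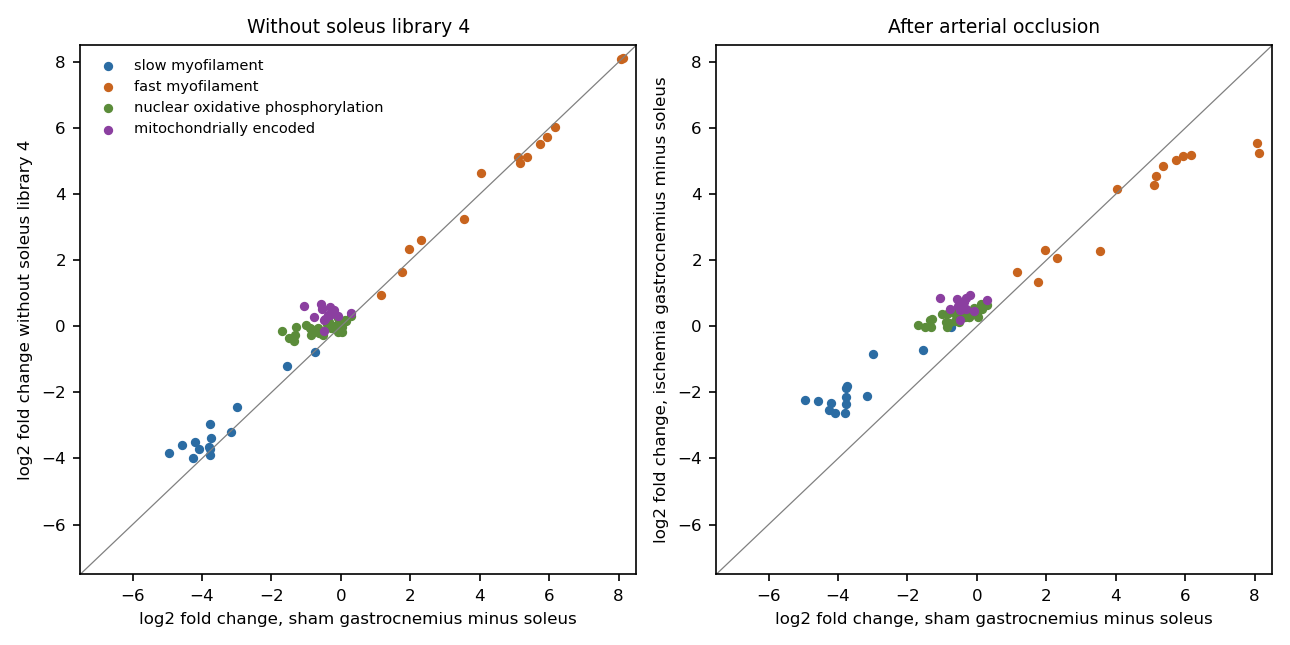
Log2 fold change (gastrocnemius minus soleus) in sham on the horizontal axis, against the same without soleus library 4 (left) and against the ischemia groups (right), for the slow and fast myofilament genes and the nuclear and mitochondrially encoded genes of oxidative phosphorylation, 1 point per gene, with the line of equality in grey. Fast and slow genes keep their sign in both panels, and the mitochondrially encoded genes shift from a median of -0.44 to 0.35 on the left.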

How the data were processed

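RNA was measured by stranded poly(A) paired-end sequencing on an Illumina instrument, per the labels' protocols. The aligner, counter and genome build were not given in the sources used here. The authors deposited a count and an FPKM value (fragments scaled to transcript length and depth) per gene and library, per the file headers. Of small values, 28.3 to 36.5% per library were multiples of 4, and the reason was not tested. The deposited counts were treated as estimated counts, not as plain fragments, and were rounded to whole numbers before fitting. FPKM was used for levels.

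Genes with FPKM of at least 1 in at least 5 of 20 libraries were tested (11693 of 21926). EdgeR 4.0.16 (R 4.3.3) fitted robust quasi-likelihood models with TMM scaling to all 20 libraries and 4 groups; a call is a Benjamini-Hochberg adjusted p under 0.05. Fibre type shares and gene numbers were compared by two-sided exact permutation. Nothing in the labels says that libraries with the same number came from the same animal, or that libraries of a group came from separate animals, so p-values measure the spread between these libraries. The fits were tested on simulated data with known changes, the same dispersion for every gene and no outlying library. That test therefore does not cover a library like soleus library 4. Alternatives were RLE scaling, library totals, DESeq2 1.42.0, limma 3.58.1 (voom quality weights, or log2(FPKM + 1) and log2(FPKM + 0.1)), 2 other filters, sham libraries only, a replicate block and leaving out each library. Blocks fitted on sham libraries only or without number 4 were added after the data were seen.

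The gene lists and the muscle comparison were chosen with earlier results of these data known. Of 638 distinct genes in 36 lists, 23 entries were not matched and are not analysed here. Genes were named as the 10 called genes with the largest change each way (at least 5 FPKM, also called without soleus library 4), the up to 5 most abundant and up to 5 most changed of each list, members called against their list's direction, and a panel of 10. The rule names 293 genes. Of these 148 are described, a choice made after their values were seen which left out many genes whose call depended on soleus library 4. Some others are not reported here. Of the 145 not described 39 were called, and 16 of those calls were lost without that library. Tnni2 is described outside the rule, also chosen after its values were seen. Counting could split reads where gene models overlap on the same strand, as for Myh4 and Myh8 or Nos1 and Fbxo21. Promoter sequences come from the RefSeq table (GRCr8), and no coordinates were converted.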

Additional observations from a re-analysis of the deposited data

Results flagged for a closer look

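In each group of 5 sham libraries, the highest or lowest library was set against the rest for each named gene, on log2(FPKM + 1), by the gap to its nearest neighbour over the whole range, with Dixon's critical value of 0.71. Chance alone would mark about 1 group in 20. Of 302 groups examined 63 were marked, 54 of them by soleus library 4. These FPKM values do not carry the TMM factors of the tests, 0.495 for soleus library 4 and 1.07 to 1.09 for the other soleus libraries. On the scaling of the tests the place of that library in its group can differ, which was not examined. That library had 8048 genes at 1 FPKM or more, the lowest of the soleus group. Among myofilament and calcium genes it was the highest of its group in Tnni1 (9666 FPKM), Myl2 (4610.5 FPKM), Myl3 (20906 FPKM) and Sln (520.2 FPKM) and the lowest of its group in Myh7 (4321 FPKM), Atp2a2 (333 FPKM) and Casq2 (81.3 FPKM). Among glycolytic and glycogen genes it was the highest of its group in Aldoa (1946 FPKM) and the lowest of its group in Pfkm (118 FPKM), Pkm (161 FPKM), Pfkfb2 (0.410 FPKM), Pygm (434 FPKM), Phka1 (2.71 FPKM), Phkg1 (5.11 FPKM), Pgm1 (118 FPKM), Gbe1 (14.3 FPKM) and Ldha (82.6 FPKM). Among fat, ketone and tricarboxylic acid genes it was the highest of its group in Eci1 (493 FPKM) and Acads (289 FPKM) and the lowest of its group in Lpl (84.7 FPKM), Acadl (186 FPKM), Acadm (107 FPKM), Oxct1 (37.7 FPKM), Idh3a (33.1 FPKM) and Sucla2 (33.0 FPKM). Among respiratory chain genes it was the highest of its group in Cox6a2 (3485 FPKM), Cox8b (409.5 FPKM) and Mt-nd2 (40713 FPKM) and the lowest of its group in Atp5f1a (545 FPKM) and Atp5f1b (1459.9 FPKM). Among fuel switch and phosphate buffer genes it was the lowest of its group in Pdk1 (18.2 FPKM), Pdp2 (0.770 FPKM), Prkab2 (2.32 FPKM), Prkag3 (1.67 FPKM), Ampd1 (44.9 FPKM) and Slc25a4 (1165 FPKM). Among regulators and position genes it was the highest of its group in Zfp385a (209 FPKM) and the lowest of its group in Esrrb (0 FPKM), Perm1 (19.7 FPKM), Ppp3cb (2.40 FPKM), Prox1 (0.263 FPKM), Ppargc1a (1.09 FPKM), Tbx15 (3.43 FPKM) and Mss51 (1.39 FPKM). Among excitation and junction genes it was the lowest of its group in Atp1b1 (32.3 FPKM) and Colq (7.13 FPKM). Among chaperone, antioxidant and remaining genes it was the highest of its group in Hspb6 (7108 FPKM), Hspb7 (3979.9 FPKM) and Gpx1 (1431 FPKM) and the lowest of its group in Tef (6.51 FPKM), Cry2 (6.05 FPKM), Vegfa (11.6 FPKM) and Lamb2 (22.3 FPKM).

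The other marks were few. Gastrocnemius library 2 had the highest Myh7 share (40.5%) of its group, the highest Fhl2 (9.14 FPKM), Sbk3 (1.59 FPKM), Pdk1 (22.9 FPKM) and Ncam1 (3.78 FPKM), and the lowest Pfkfb3 (8.86 FPKM). Gastrocnemius library 3 had the lowest Myh8 (11.4 FPKM). Soleus library 1 had the highest Ostn (0.892 FPKM) and the lowest Cnp (12.1 FPKM) of its group.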

How the results depend on the processing

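Of 165 called genes that the naming rule picks, 144 were called in the same direction without soleus library 4. The genes described were picked from those the rule names after their values were seen, so their own counts are no measure of stability. The sham count of 2911 was 5267 with voom quality weights and 1387 with sham libraries only. Leaving out 1 library gave 2065 (gastrocnemius library 3) to 4136 (soleus library 4). The ischemia count of 1473 was 2633 with library totals and 5105 with voom, and 849 (ischemia gastrocnemius library 2) to 3784 (sham soleus library 4) with 1 library left out. The difference between treatments was called for 0 genes by edgeR (758 at an unadjusted p under 0.05), 1 with library totals, 2 with DESeq2, 1 with voom and 0 to 1 with 1 library left out. The Myh7 share difference (gastrocnemius minus soleus) ran from -94.1 to -84.1 percentage points with 1 library left out. The difference in genes at 1 FPKM (-95.8) ran from -644 to 63.4, with 12.4 without gastrocnemius library 3 and 63.4, 5.35, 41.1 and 54.85 without soleus libraries 1, 2, 3 and 5, and so has no settled sign. Mt-nd2 (log2 fold change -0.58) ran from -0.80 to 0.68 with 1 library left out, the latter without soleus library 4, and was 0.64 with voom and 0.69 with the block that leaves out number 4. The causes were not tested.

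Same-numbered sham libraries had deviations correlated at -0.06, 0.14, 0.05, -0.21 and 0.32, and ischemia libraries at 0.43, 0.01, 0.40, 0.19 and 0.43, so the numbers were not taken to pair the libraries, and not every library correlated best with its own number. With a replicate block the sham count was 2161. Blocks chosen after seeing the data gave 613 for sham libraries only and, with number 4 left out, 4259 for sham, 4691 for ischemia and 2 for the difference between treatments. No depth beyond the deposited counts was available, and the number of reads behind a gene near 1 FPKM depends on its transcript length.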
